A study of Homo sapiens with 4 samples.

Results

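The cadherin superfamily genes described here are the 95 genes on the array whose name is CDH, PCDH, FAT or CELSR followed by a number, or DCHS1 or DCHS2, with the alpha, beta and gamma protocadherin clusters included. They were chosen by name and by no measured value, and they carry 129 of the 50599 probes and 95 of the 36337 gene names on the array. By family they are 5 type I and 13 type II classical cadherins, 5 other CDH genes, 6 FAT and dachsous genes, 3 CELSR genes, 13 protocadherins outside the clusters, and 15 alpha, 18 beta and 17 gamma protocadherins. The beta and gamma counts include probes that RefSeq lists under the pseudogene symbols PCDHB17P, PCDHB18P, PCDHB19P and PCDHGB8P.

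Cadherins are calcium-dependent adhesion molecules that join a cell to its neighbours through repeated extracellular domains and, in the classical members, bind catenins inside the cell. Clustered protocadherins arise from long arrays of variable exons with their own promoters, and neurons use them for self-recognition. FAT and dachsous proteins are giant cadherins that bind each other and feed into planar cell polarity and Hippo signalling, and CELSR proteins are the adhesion receptors of the core polarity pathway.

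GIST-T1 is an established human cell line from a gastrointestinal stromal tumor (GIST). In each transfection, 3000000 cells received by nucleofection 100 pmol of a mirVana mimic of miR-34a, which is a synthetic RNA duplex standing in for the mature miRNA, or of mirVana Negative Control #1, and total RNA was taken 48 h later. There were 2 arrays per group, all of cells of the 1 line, and nothing in the labels says whether the replicates came from separate cultures, so the spread between them may be technical. From each sample 100 ng of RNA was labeled with Cy3 and hybridized to an Agilent one-color array of 60-base probes, and the question was which genes differ in level between the mimic and the control.

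The 4 arrays shared 1 slide and 1 scan, and 41.8% to 45.2% of all probes were well above background, the scanner software's detection flag. The second negative control array stood apart in the number of probes that it alone detected, 1465, against 255 to 489 on the other arrays. KIT, ANO1, ETV1 and PRKCQ, the GIST markers, were all detected, with a summed signal, in units of the array's 75th percentile, of 181 to 184 with the mimic and 261 on both control arrays. KIT, the receptor tyrosine kinase of GISTs, had the highest signal of the 4. It was 1.62-fold lower with the mimic (adjusted p = 0.0948 by limma), and the part of this in the results below was not tested. The dimmer ANO1, ETV1 and PRKCQ differed by -0.06, -0.07 and -0.23, with adjusted p-values of 0.264 to 0.516 by limma. Of 5 smooth muscle markers 3 were tested, and DES, ACTA2 and ACTG2 differed by -0.39, -0.20 and -0.18, each at an unadjusted p under 0.05 by limma. Over all tested genes 11.9% were lower at that level, and none of the 3 passed an adjusted p of 0.05 by limma. The summed signal of the list was 5.69 to 5.76 with the mimic and 6.82 to 6.90 with the control, and its part in the results was not tested either. The 5 glial and Schwann cell markers were not well above background on any array. Levels below are log2 processed signals relative to the array's own 75th percentile, and differences are the miR-34a mimic mean minus the negative control mean on that log2 scale. In bulk RNA, fewer cells of a type and less RNA per cell cannot be told apart.

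The sequences that bear most on the results are those of the miRNA that was introduced and of probes whose behavior decides what can be said about a gene. The mature miRNA, from RefSeq (GRCh38.p14, chr1:9151735-9151756, minus strand), has its seed, bases 2 to 8, in capitals.
hsa-miR-34a-5p: uGGCAGUGucuuagcugguugu
The FAT4 and FAT3 probes below were each well above background on a single array, and the CELSR1 probe was bright on all 4 arrays while other probes to that gene were dim. In hg19 they lie at chr4:126412840-126412899 and chr11:92258032-92258091, both on the plus strand, and at chr22:46760087-46760146 on the minus strand.
FAT4: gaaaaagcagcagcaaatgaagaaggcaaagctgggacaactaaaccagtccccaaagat
FAT3: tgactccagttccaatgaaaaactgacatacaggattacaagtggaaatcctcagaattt
CELSR1: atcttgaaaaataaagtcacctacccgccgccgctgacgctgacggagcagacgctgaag
The probes for PCDHGA3 (chr5:140725938-140725997) and PCDHGA5 (chr5:140746220-140746279), both on the plus strand, share the 32 bases in capitals, so their signals may not be separate measurements of each gene.
PCDHGA3: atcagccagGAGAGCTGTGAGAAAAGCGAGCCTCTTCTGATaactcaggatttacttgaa
PCDHGA5: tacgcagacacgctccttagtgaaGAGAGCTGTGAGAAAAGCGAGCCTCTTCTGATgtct
A DNA match to the miR-34a seed, CACTGCC or ACTGCCA in the sense strand of the probe, was in 0 of the 129 member probes, and in 0.435% and 0.393% of all probes. A probe covers 60 bases of a transcript, so these counts say nothing about the rest of it.

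Detection came first, since it decides which members can be compared. Of the 95 genes, 43 (45.3%) had a probe that both arrays of a group, or of both groups, placed well above background, and were tested, 8 were detected on some array but not tested, and 44 (46.3%) were not well above background on any array. Over all gene names the shares were 44.6% tested and 48.8% on no array, so the members as a whole were detected about as often as other genes. The families differed in how many genes were tested, from 0 of 5 among the other CDH genes (CDH13, CDH16, CDH17, CDH23 and CDH26) and 1 of 5 type I cadherins to 12 of 18 beta protocadherins and 4 of 6 FAT and dachsous genes.

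**Figure D1:**
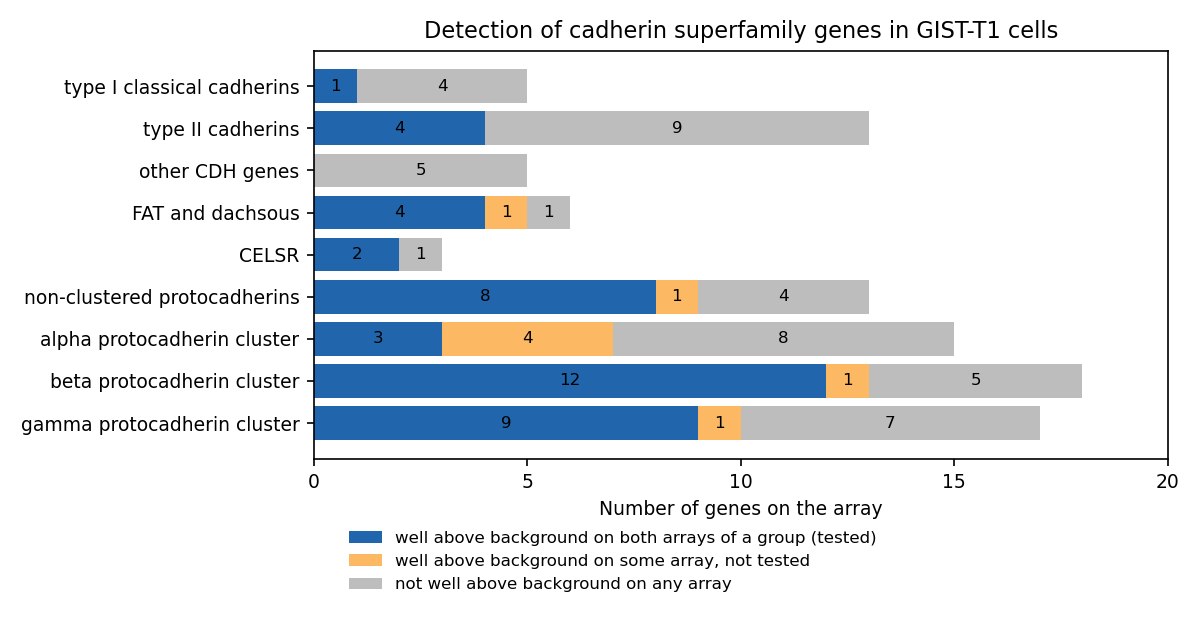
Number of genes on the array (x axis) in each family (y axis), split by detection. Blue bars are tested genes, detected on both arrays of a group, orange bars genes detected on some array but not tested, and gray bars genes detected on no array. Blue takes 12 of 18 beta protocadherins, 1 of 5 type I cadherins and 0 of 5 other CDH genes.

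Of the type I classical cadherins, 4 of 5 were below detection in GIST-T1 cells in both groups. CDH1 (E-cadherin, the epithelial adherens junction molecule), CDH3 (P-cadherin) and CDH4 (R-cadherin) were not well above background on any array, and neither was either of the 2 probes for CDH2 (N-cadherin, the usual mesenchymal and neural counterpart). The CDH1 signal was -5.34 and -5.27 with the mimic and -5.31 and -5.26 with the negative control, and the brighter CDH2 probe ran from -5.20 to -3.89, all below detection. Of the 9 epithelial markers examined beside CDH1, 5 were detected on some array. KRT18 (6.15 to 6.33 over the arrays), KRT8 (3.32 to 3.46), CLDN7 and EPCAM were tested, with differences of -0.14, -0.10, -0.06 and 0.41, and ESRP1, KRT19, CLDN3 and CLDN4 were detected on no array.

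CDH15 (M-cadherin, known from muscle) was the 1 type I cadherin tested. Its signal was -2.18 and -1.95 with the miR-34a mimic and -1.86 and -2.09 with the negative control. The groups overlapped, and the difference was -0.09 ± 0.13 (limma SE, n = 2 per group).

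Among the type II cadherins, CDH11 (OB-cadherin, a molecule of mesenchymal cells) did not separate the groups. Its brighter probe read 3.36 and 3.30 with the miR-34a mimic and 3.26 and 3.32 with the negative control, a difference of 0.04 ± 0.06. A second CDH11 probe was detected on 2 arrays, 1 in each group. CDH22 read 2.92 and 2.73 with the mimic and 3.06 and 2.98 with the control, and CDH24 read -0.93 and -0.90 against -0.96 and -1.07. In both genes the groups did not overlap, with differences of -0.19 ± 0.09 for CDH22 and 0.10 ± 0.07 for CDH24, and neither passed an adjusted p of 0.05 by limma.

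CDH5 (VE-cadherin, the adherens junction cadherin of endothelial cells) was the 1 member whose representative probe was lower by more than 1.5-fold. Its 1 probe (hg19 chr16:66437356-66437415) read -3.57 and -3.64 with the miR-34a mimic and -2.70 and -2.57 with the negative control. Both control arrays detected it and neither mimic array did. Taking each mimic array at the lowest signal among its detected probes (-3.30 and -3.21), CDH5 was 1.54-fold lower with the mimic. The adjusted p of CDH5 in the limma fit with Benjamini-Hochberg adjustment was 0.0948. A probe below detection can read above that lowest signal, as a PCDHGB1 probe did at -3.03 and -2.88 on the mimic arrays. The bounds here and below are therefore not strict lower limits. The measured difference was -0.97, but CDH5 entered the fit through the control arrays alone and its mimic readings were below detection, so the bound is the value to be read. Of all tested genes 4.83% were lower by more than 1.5-fold, beside 1 of 43 members, a share near the background. Without the first mimic array or without the second control array the bound was 1.49-fold or 1.47-fold. With normexp background correction, a model-based subtraction, the difference was -0.28 and no longer past 1.5-fold.

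The other endothelial markers were at or near background. PECAM1, ERG, TEK, KDR and CLDN5 were detected on no array, VWF was detected on some array but not tested, and 0 of 6 were therefore compared. Their summed signal, in units of the array's 75th percentile, was 0.32 to 0.44 with the mimic and 0.30 to 0.46 with the control, with no separation of the groups.

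In the FAT and dachsous family, FAT1 was higher and DCHS1 lower on every mimic array than on every control array, by small amounts. FAT1, the large cadherin implicated in actin organization and in Hippo signalling, read 4.25 and 4.29 with the miR-34a mimic and 4.11 and 4.11 with the negative control. The groups did not overlap, and the difference was 0.16 ± 0.05 (adjusted p = 0.202 by limma). DCHS1, the dachsous ligand that pairs with FAT4, read 1.25 and 1.404 with the mimic and 1.605 and 1.515 with the control. Every mimic array was below every control array, a difference of -0.23 ± 0.08 (adjusted p = 0.218 by limma).

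FAT3 and FAT4 were picked by the study on these arrays as decreased predicted targets of miR-34a, so their values here are not independent evidence of a decrease. The brighter FAT3 probe (hg19 chr11:92629072-92629131) was well above background on all 4 arrays and read 2.12 and 2.09 with the miR-34a mimic and 1.91 and 2.16 with the negative control. The groups overlapped, with a difference of 0.07 ± 0.11 (adjusted p = 0.703 by limma). The dim FAT3 probe, whose sequence is given above, read -5.22 and -4.32 with the mimic and -2.26 and -4.81 with the control, and the first control array alone detected it. The groups overlapped. Taken at the detection limit of the mimic arrays it gave no bound over all arrays. Without the second control array the bound was 1.99-fold lower, from the 1 control array that detected it.

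FAT4, the receptor for DCHS1, had 2 probes. The one printed above read -3.38 and -5.44 with the miR-34a mimic and -4.10 and -0.09 with the negative control, and the second control array alone detected it. It was too dim to be tested. Because the first control array did not detect it and lay between the mimic arrays, the groups overlapped. Over all arrays, with the mimic arrays taken at their detection limit, the value was 2.25-fold lower with the mimic. It is not a true lower limit, since 1 of 2 control arrays was below detection and was taken at its own signal. Without the first control array the bound was 9.01-fold, from 1 control array alone. Without the second control array there was no bound, and the measured difference was -0.31. The other probe for FAT4 was detected on no array and read -3.80 and -4.41 with the mimic and -5.33 and -5.40 with the control, below detection in both groups.

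DCHS2, a second dachsous, was tested with 1 of its 3 detected probes. That probe read -0.23 and -0.45 with the mimic and -0.58 and -0.29 with the control, an overlap with a difference of 0.09 ± 0.15. Another of its probes was detected on the first control array alone, at -0.23 there against -3.70 on the second control array and -3.28 and -5.18 on the mimic arrays. FAT2 was detected on no array.

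CELSR1 and CELSR2 were tested and CELSR3 was not detected. The bright CELSR1 probe printed above read 6.65 and 6.61 with the miR-34a mimic and 6.59 and 6.64 with the negative control. The groups overlapped and the difference was 0.01 ± 0.06. A second CELSR1 probe, detected on 3 arrays, read -2.83 and -2.29 with the mimic and -2.63 and -3.11 with the control (difference 0.31 ± 0.28), and the other 2 probes for the gene were detected on no array. CELSR2 read -2.93 and -2.34 with the mimic and -2.35 and -2.39 with the control. The first mimic array stood below the other arrays, and the difference was -0.27 ± 0.23.

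Of the 13 protocadherins outside the clusters, 8 were tested, 6 with a difference below 0 and 2 above, with a median of -0.20. Over all tested genes 8309 differences were below 0 and 7883 above, and no family was tested as a set. PCDH1 (protocadherin 1, known from airway epithelium) read 2.30 and 2.37 with the miR-34a mimic and 2.80 and 2.78 with the negative control. Every mimic array was below every control array, the arrays of each group differed by far less than the groups, and PCDH1 was 1.38-fold lower (difference -0.46 ± 0.06, adjusted p = 0.0954 by limma). This rests on 1 probe. The other PCDH1 probe was detected on no array, at -5.43 and -5.39 with the mimic and -5.40 and -5.36 with the control. PCDH7 (hg19 chr4:30726159-30726218 for the probe), which is expressed in brain and heart, read -0.19 and -0.14 with the mimic and 0.24 and 0.24 with the control. It was 1.32-fold lower, again without overlap (difference -0.40 ± 0.05, adjusted p = 0.0954 by limma). With the variance modeled along signal intensity, PCDH1 and PCDH7 had adjusted p-values of 0.0153 and 0.0466 by limma, and they were the 2 of 43 members lower at an adjusted p under 0.05 in that fit, beside 3.96% of all tested genes. In the same fit 0 of 43 were higher, beside 4.28% of all tested genes.

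PCDH12 (a protocadherin of endothelium and placenta) read -0.96 and -1.17 with the mimic and -0.90 and -0.78 with the control, and PCDH18 read 0.55 and 0.31 against 0.63 and 0.64. Both were lower on every mimic array, with differences of -0.22 ± 0.10 and -0.20 ± 0.10. A second PCDH18 probe differed by -0.13 ± 0.07. PCDH9, PCDH10 and PCDH11X overlapped between groups, with differences of -0.07 ± 0.10, -0.19 ± 0.26 and 0.08 ± 0.22. PCDH11Y had the highest difference of the 43 members, 0.39 ± 0.18 with no overlap between the groups (adjusted p = 0.292 by limma), whereas its second tested probe differed by -0.02 ± 0.09 with overlap. PCDH11Y is near-identical to PCDH11X, so the signals of probes for this pair are uncertain. PCDH8, PCDH17, PCDH19 and PCDH20 were detected on no array, and PCDH15 (a hair cell tip-link protein) on the second control array alone.

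**Figure D2:**
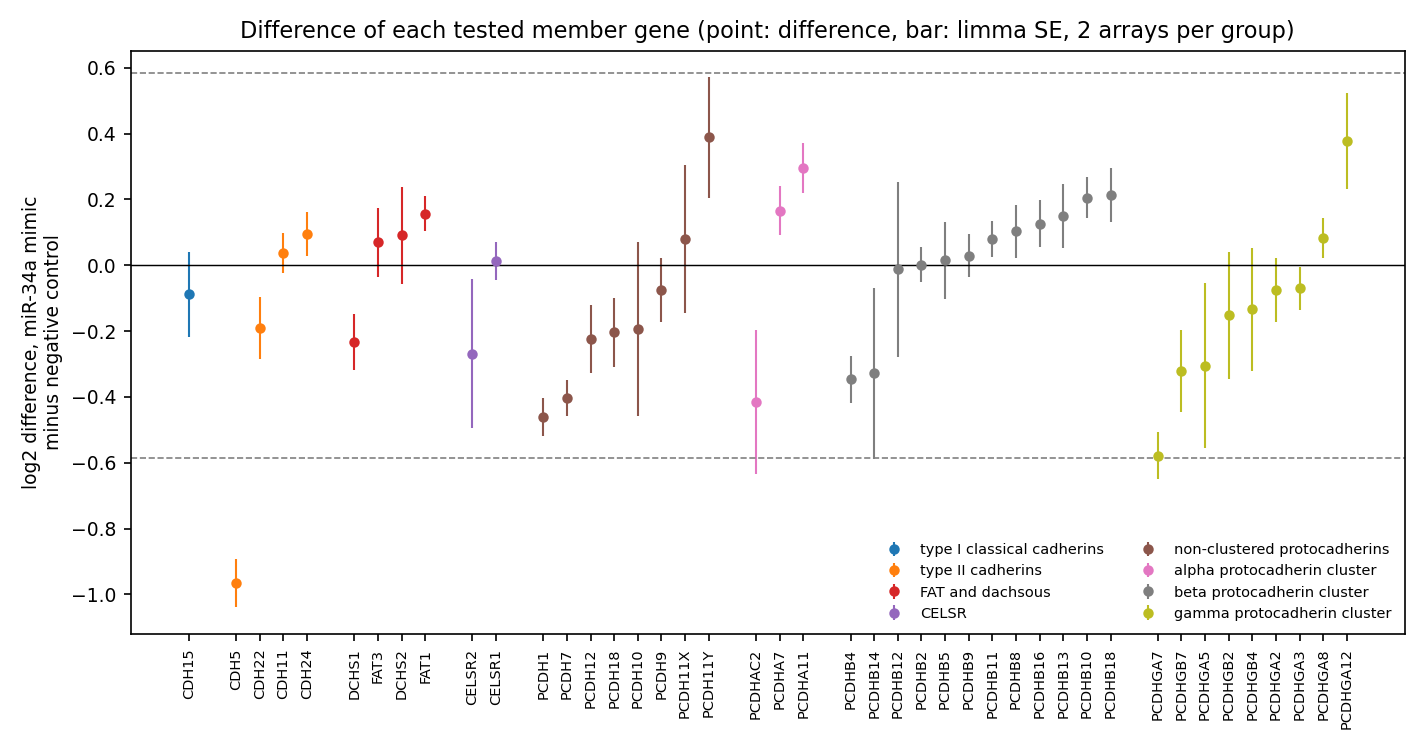
Difference of each tested member gene on the log2 scale (y axis, miR-34a mimic minus negative control), grouped by family (x axis). Points are the representative probe's difference, bars the limma SE with 2 arrays per group, and dashed lines mark 1.5-fold. CDH5 at -0.97 is past the lower line, PCDHGA7 at -0.58 lies on its near side, and no gene is past the upper line, with PCDH11Y highest at 0.39.

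The clustered protocadherins lie on chromosome 5, with the probes of the alpha cluster at chr5:140168240-140390955, of the beta cluster at chr5:140433339-140627489 and of the gamma cluster at chr5:140720840-140892453 (hg19). Of 15 alpha genes 3 were tested, of 18 beta genes 12, and of 17 gamma genes 9. The median difference was 0.17 for the alpha, 0.05 for the beta and -0.13 for the gamma genes, against -0.01 for all members and -0.01 for all tested genes.

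Of the alpha genes, PCDHA7 read 0.26 and 0.32 with the miR-34a mimic and 0.18 and 0.06 with the negative control, a difference of 0.17 ± 0.07 without overlap. The probe named for PCDHA11 read 0.91 and 1.04 with the mimic and 0.71 and 0.64 with the control, a difference of 0.30 ± 0.08 (adjusted p = 0.15 by limma), but its accessions also list PCDHA9, PCDHAC1 and PCDHAC2. The probe for PCDHAC2 alone went the other way, at -2.91 and -2.38 against -2.12 and -2.33, a difference of -0.42 ± 0.22. These probes thus differed in sign although their listed genes overlap, and none was past 1.5-fold. A second probe for PCDHA11, listed for that gene alone, was well above background on no array, so the signal may come from the other listed genes. PCDHA1 was detected on 1 array of each group and was not tested.

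The beta genes showed 9 differences above 0 and 3 below, where the split over all tested genes was near even. In 5 of 12, PCDHB10, PCDHB11, PCDHB13, PCDHB16 and PCDHB18, both mimic arrays were above both control arrays, beside 31.2% of all tested genes. Their differences ran from 0.08 ± 0.05 for PCDHB11 to 0.21 ± 0.08 for PCDHB18, whose probe is listed under the pseudogene symbol PCDHB18P. PCDHB10, the only one of these at an unadjusted p under 0.05 by limma, read -0.755 and -0.735 with the mimic and -0.997 and -0.903 with the control (difference 0.20 ± 0.06). PCDHB4 was the 1 beta gene lower on both mimic arrays, at -2.64 and -2.76 against -2.37 and -2.33 (difference -0.35 ± 0.07, adjusted p = 0.124 by limma). PCDHB2 was represented by a probe that read 1.26, 1.23, 1.25 and 1.24 over the 4 arrays, whereas its second probe differed by 0.28 ± 0.12 without overlap. The first of these is also listed for PCDHB3, and the second for PCDHB2 alone. PCDHB5, PCDHB8, PCDHB9, PCDHB12 and PCDHB14 overlapped between the groups, with differences from -0.33 to 0.10. PCDHB2 and PCDHB13 have probes that share 23 bases.

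Of the gamma genes, 7 had a difference below 0 and 2 above, where the split over all tested genes was near even. PCDHGA7, one of the gamma A genes, came closest to 1.5-fold. Its brighter probe (hg19 chr5:140764880-140764939) read -1.92 and -1.86 with the miR-34a mimic and -1.25 and -1.37 with the negative control, 1.49-fold lower without overlap (difference -0.58 ± 0.07, adjusted p = 0.0954 by limma). The other PCDHGA7 probe read -2.08 and -1.91 against -2.07 and -2.08, with overlapping groups and a difference of 0.08 ± 0.08. That second probe is also listed for PCDHGA8. PCDHGB7 was lower on both mimic arrays by -0.32 ± 0.12, and PCDHGA12, whose probe is also listed for PCDHGA10, was higher on both by 0.38 ± 0.15.

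The remaining gamma probes overlapped or were shared. The PCDHGA8 probe, listed for PCDHGA2, PCDHGA11 and PCDHGA12 as well, read 2.953 and 2.999 with the mimic and 2.928 and 2.857 with the control. A probe listed for PCDHGA8 alone was well above background on no array. PCDHGA3 and PCDHGA5, whose probes share the capitals printed above, differed by -0.07 ± 0.07 and -0.31 ± 0.25, and the groups overlapped in both. PCDHGA2, PCDHGB2 and PCDHGB4 had differences of -0.07 ± 0.10, -0.15 ± 0.19 and -0.13 ± 0.19. The PCDHGA2 probe is also listed for PCDHGA1, PCDHGA3 and PCDHGA11, the PCDHGA3 probe for PCDHGA4 and PCDHGA6, and the PCDHGB4 probe for PCDHGB5. The probes for PCDHGA2 and PCDHGA3 share 24 bases. In all, 9 member probes were listed for more than 1 gene.

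Members detected on a single array lay mostly on the negative control side. Of 129 member probes, 9 were well above background on exactly 1 array, 3 on the first control array, 5 on the second, 1 on the first mimic array and 0 on the second mimic array. They belonged to FAT4, PCDHA4, PCDHA6, PCDHA13 and PCDH15 on the second control array, to FAT3, DCHS2 and PCDHGB1 on the first control array, and to PCDHB15 on the first mimic array. Over all probes 2.90% were detected on the second control array alone and 0.504% to 0.966% on each of the other arrays. PCDHA13 read -0.26 on the second control array and -4.31, -5.24 and -4.40 on the first control and the mimic arrays, and the dim DCHS2 probe was likewise near 0 on the first control array alone. The detected readings of PCDHA4, PCDHA6 and PCDH15 on the second control array were lower, at -2.28, -2.79 and -2.92, and those of PCDHGB1 and PCDHB15 were -2.63 and -2.71. None of these 9 probes was tested, and the part that the single array had in each of these differences was not tested. With 1 of 2 control arrays measuring each probe, values at the mimic arrays' detection limit were 1.96-fold for PCDHA13, 2.43-fold for DCHS2 and 1.12-fold for PCDHGB1 over all arrays. The other control array was below detection and taken at its own signal, so these are not true lower limits. The probes of FAT3, PCDH15, PCDHA4, PCDHA6 and PCDHB15 gave no bound over all arrays. Without the other array of its group the value was 7.99-fold for PCDHA13, 8.10-fold for DCHS2, 1.97-fold for PCDHA4, 1.48-fold for PCDHGB1, 1.39-fold for PCDHA6 and 1.26-fold for PCDH15, all lower with the mimic, and 1.42-fold higher for PCDHB15. Each of these values rests on the 1 array that detected the probe, so its direction was set by that choice of array. Without the array that detected a probe there was no bound.

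**Figure D3:**
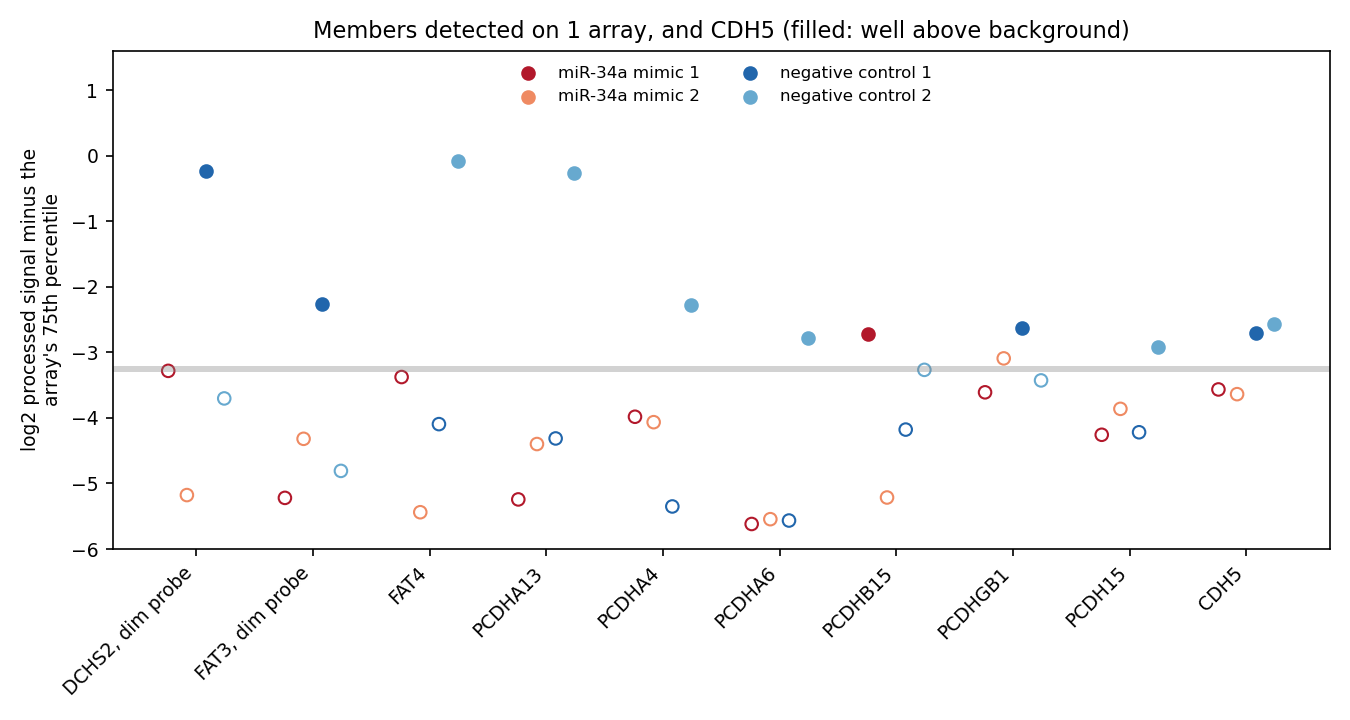
Log2 processed signal minus the array's 75th percentile (y axis) on each of the 4 arrays for the 9 member probes detected on 1 array and for CDH5 (x axis). Filled points are well above background, open points are not, and the gray band is the range over arrays of the lowest detected signal. In FAT4, PCDHA13 and DCHS2 a single control array lies near 0 and the other arrays lie below -3, while for CDH5 both control arrays are filled and both mimic arrays are open.

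Over the 43 tested members, 22 differences were below 0 and 21 above, with a median of -0.01 as for all tested genes. None was higher by more than 1.5-fold, against 1.95% of all tested genes. At an adjusted p under 0.05 by limma there were 0 members and 0% of all genes, and the smallest adjusted p was 0.0948. At an unadjusted p under 0.05 there were 5 lower (CDH5, PCDHGA7, PCDH1, PCDH7 and PCDHB4; background 11.9%), of which CDH5 entered the fit through its control readings alone, and 3 higher (FAT1, PCDHA11 and PCDHB10; background 13%). The PCDHA11 probe is also listed for other genes. Both mimic arrays were below both control arrays in 11 members and above them in 12, whereas the shares over all genes were 30.6% and 31.2%. With 2 arrays per group, the lowest p that an exact permutation test (two-sided) can reach for a gene is 0.33.

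The gap between arrays of one group was of the size of most differences. Over the 49 tested member probes the median gap was 0.12 between the mimic arrays and 0.12 between the control arrays, against 0.10 and 0.08 over all tested probes, and the median size of the difference between groups was 0.16. The difference between groups exceeded both gaps in 17 of 43 genes. That count was not made over all tested genes, so whether it is unusual on these arrays cannot be said.

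CDH5, PCDHGA7, PCDH1 and PCDH7 were compared under other processing. PCDH1 stayed between -0.49 and -0.42 in all settings run and reached an adjusted p of 0.0319 by limma after normexp correction. PCDH7 and PCDHGA7 were at -0.27 and -0.31 after normexp correction, and PCDHGA7 was past 1.5-fold when the percentile was taken over detected probes, at -0.59.

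**Figure D4:**
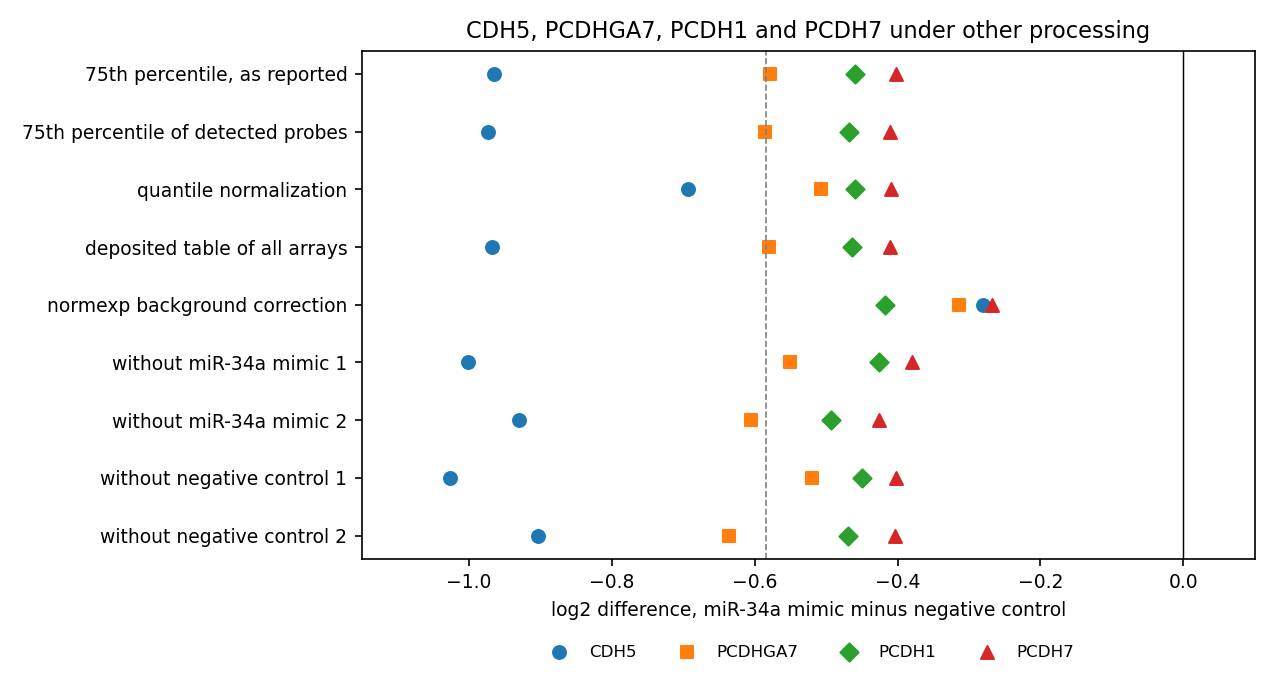
Log2 difference (x axis, miR-34a mimic minus negative control) of CDH5, PCDHGA7, PCDH1 and PCDH7 under each way of processing the arrays (y axis). The dashed line marks 1.5-fold lower. CDH5 moves from -0.97 to -0.28 with normexp correction, and PCDH1 stays between -0.49 and -0.42.

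Genes that act with the cadherins were described from lists of partners, naming in each the gene whose probe had the highest signal. Among catenins and plakophilins, which link cadherins to the cytoskeleton, 11 of 17 were tested and 0 passed 1.5-fold, with a median of 0.04. CTNNB1 (beta-catenin), the brightest, read 4.90 and 4.87 with the mimic and 4.84 and 4.81 with the control, a difference of 0.06 ± 0.05. MLLT4 (afadin, which ties nectins to actin) differed by -0.43 ± 0.05 with its representative probe. Of its 5 probes, 2 were lower by more than 1.5-fold. Among the desmosomal genes, 2 of 8 were tested, and DSP (desmoplakin) differed by -0.33 ± 0.11. Of the other superfamily genes 2 of 8 were tested, with CLSTN3 (calsyntenin 3) the brightest at a difference of 0.32 ± 0.05.

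The genes downstream of FAT and CELSR were detected throughout. All 21 FAT and Hippo pathway genes on the list were tested, and 0 were past 1.5-fold, with a median of 0.06. NF2 (merlin), the brightest, differed by -0.08 ± 0.05, and FJX1, which belongs to the four-jointed family of FAT and dachsous kinases, by -0.48 ± 0.05 (adjusted p = 0.0948 by limma). MOB1B, a cofactor of the LATS kinases, differed by 0.08 ± 0.13 with its representative probe, but another of its 3 probes was 1.51-fold lower (difference -0.60 ± 0.10). All 12 planar cell polarity genes were tested and 0 were past 1.5-fold, with a median of 0.10 and SCRIB the brightest at -0.24 ± 0.05.

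The Hippo target genes had the highest median of the lists, 0.28 over 5 tested genes, and 4 of the 5 were higher at an unadjusted p under 0.05 by limma, beside 13% of all tested genes. ANKRD1, the other gene of the list, was detected on no array. CTGF, a secreted matricellular protein, read 0.65 and 0.82 with the miR-34a mimic and 0.02 and 0.12 with the negative control. It was 1.58-fold higher without overlap (difference 0.66 ± 0.09, adjusted p = 0.0954 by limma) and was the 1 partner gene past 1.5-fold in either direction. CYR61, of the same protein family, read 3.98 and 4.10 against 3.44 and 3.49 and was 1.49-fold higher (difference 0.57 ± 0.07). AMOTL2 was the brightest at 0.28 ± 0.05. AXL overlapped between the groups. With normexp correction, or without the second mimic array, no partner gene was higher by more than 1.5-fold.

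In the remaining lists no gene was past 1.5-fold. Of the cohesin and CTCF genes that govern promoter choice in the protocadherin clusters, 9 of 9 were tested, with a median of 0.02 and RAD21, the brightest, at -0.10 ± 0.11. Of the genes for the shedding and cleavage of cadherins, which include proteases and subunits of protease complexes, 10 of 11 were tested. Their median was 0.11, and NCSTN (nicastrin), a subunit and the brightest, was at 0.11 ± 0.05. No gene of any partner list passed an adjusted p of 0.05 by limma.

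**Figure D5:**
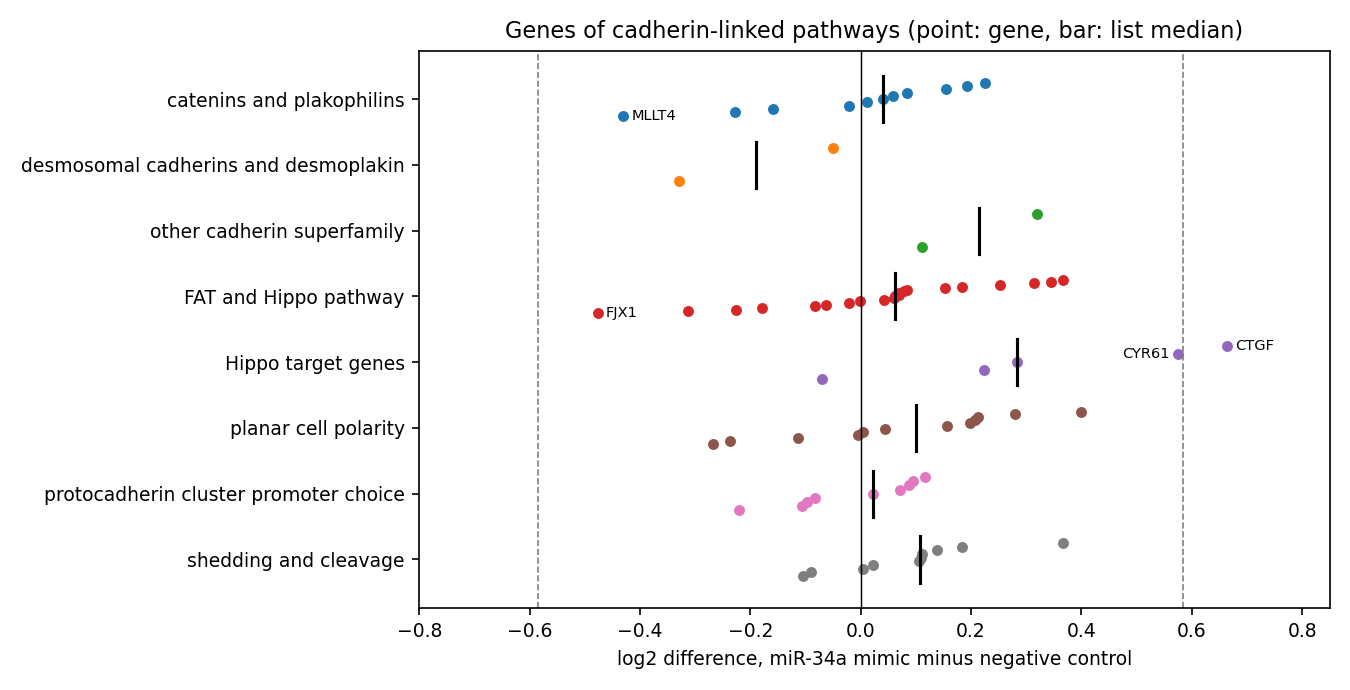
Log2 difference (x axis, miR-34a mimic minus negative control) of each tested gene of the partner lists (y axis), with a vertical bar at each list's median and dashed lines at 1.5-fold. CTGF at 0.66 is the 1 gene past a line, with CYR61 at 0.57 just inside it, and FJX1 at -0.48 is the lowest.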

How the data were processed

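Per array, the authors deposited spot intensities from Agilent Feature Extraction 10.7.3.1, with background subtracted and spatial trends removed but without scaling between arrays. A joint table of processed intensities that they deposited held values within 0.499% of the scanner output. Spots with an outlier flag (293 to 424 of 58717 per array) were left out, spots of a probe were averaged, and the log2 intensity was shifted by the array's 75th percentile. No spot was saturated. Detection was the software's flag for a spot well above background. Limma 3.58.1 (lmFit, eBayes) in R 4.3.3 tested the 21474 probes, with 16192 gene names, detected on both arrays of at least 1 group, with Benjamini-Hochberg adjustment. The brightest tested probe stood for a gene. The 1.5-fold threshold is the study's, which names no array test. The number of arrays limits the precision.

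The name rule was read with the sub-cluster letter of the alpha and gamma genes allowed (PCDHGA7), which gives 95 genes instead of 76. Named with values were every tested member (PCDH11Y by its difference), FAT3 and FAT4 with every probe, a set of well-known members whether detected or not, and the brightest and past-threshold genes of partner lists. CYR61, FJX1, MOB1B, MLLT4, DSP, ANKRD1 and AXL were named after their values were seen. The members and lists were chosen with earlier results of these data known. Of the 95 symbols, 93 were in RefSeq, and 121 of 129 probes carried a RefSeq accession. Probe positions are the array's hg19 annotation, and exon positions were not used here. Alternatives were normexp (offset 50), quantile scaling, the percentile over detected probes, other filters on dim probes, the authors' table, a variance trend, a replicate block, the methods' t-test, any tested probe of a gene, another detection flag and leaving out each array. On simulated data for this comparison, 105 of 200 changed probes among 21453 were called, with 4 unchanged ones. These counts are over all planted sizes, and every planted change was larger than the difference of any tested member. The share called at the sizes of the member differences was not tested.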

Additional observations from a re-analysis of the deposited data

How the results depend on the processing

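Of the 43 tested members, 0 passed an adjusted p of 0.05 by limma, and the count became 1 (PCDH1) with normexp background correction, 2 (PCDH1 and PCDH7) with a variance trend, and 6 by the methods' t-test without adjustment (CDH5, FAT1, PCDH1, PCDH7, PCDHB4 and PCDHGA7). After Benjamini-Hochberg adjustment that test gave 0. The count of members lower by more than 1.5-fold, 1 as reported, was 2 with the percentile over probes detected on all arrays (CDH5 and PCDHGA7), 13 with no filter on dim probes, 4 with probes detected on at least 1 array (CDH5, FAT4, PCDHA13 and PCDHA6), 0 with normexp and 0 when detection on all 4 arrays was required. Leaving out 1 array gave 2 to 6 lower members: beside CDH5, PCDHB14 without the first mimic array, PCDHAC2 and PCDHGA7 without the second, FAT4, PCDH15, PCDHA13, PCDHA4 and PCDHA6 without the first control array, and PCDHGA7 and PCDHGB1 without the second. The filter was applied to the arrays left. All of these except PCDHAC2 and PCDHGA7 passed it through control arrays alone, so the filter itself favored a decrease. That also holds for CDH5, FAT4, PCDHA13 and PCDHA6 among probes detected on at least 1 array. No share over all genes was computed for these counts, so they are not evidence of a decrease. The count of higher members was 3 with no filter on dim probes, and 0 to 1 (PCDHB15, without the second mimic array) leaving out 1 array. PCDHB15 passed the filter through the first mimic array alone. Higher partner genes, 1 as reported, were 0 with normexp, 2 with quantile scaling and 0 to 2 leaving out 1 array (0 without the second mimic array, 2 without the first mimic or the second control array), and lower partner genes, 0 as reported, were 2 when any tested probe of a gene counted, 3 with no filter and 1 with probes detected on at least 1 array. A mean of 52 member probes per array was well above background, against 86.5 by the flag for a positive and significant signal.

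The replicate number shared by the groups did not pair the arrays (correlation of deviations -0.028), and with a replicate block the counts were 1 lower and 0 at an adjusted p under 0.05, as without it. Differences near 0 changed sign. CDH24 was -0.018 with normexp, PCDHB12 was 0.028 with normexp and 0.23 with quantile scaling, PCDHGB2 was 0.0031 with normexp, PCDHGB4 was 0.066 and CDH15 0.028 with quantile scaling, and PCDHB2 was -0.0066 with the percentile over detected probes, -0.0098 with normexp, -0.0097 with quantile scaling and -0.0015 with the authors' table. Leaving out 1 array, the differences ranged over CDH15 -0.20 to 0.026, CELSR1 -0.016 to 0.039, CELSR2 -0.56 to 0.026, DCHS2 -0.058 to 0.24, FAT3 -0.053 to 0.19, PCDH10 -0.52 to 0.14, PCDH11X -0.14 to 0.30, PCDH9 -0.18 to 0.032, PCDHB12 -0.36 to 0.34, PCDHB2 -0.011 to 0.014, PCDHB5 -0.12 to 0.15, PCDHB9 -0.011 to 0.068, PCDHGA2 -0.17 to 0.015, PCDHGB2 -0.33 to 0.025 and PCDHGB4 -0.37 to 0.10. The causes of these changes were not tested. The number of arrays and the signal over background limit all of these values.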
